A study of Mus musculus with 6 samples.

Results

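Ttn, Neb, Myom1, Myom2, Myom3, Mybpc1, Mybpc2, Mybpc3 and Mybph encode the very large proteins of the sarcomere and the proteins that tie the thick filaments together. These 9 genes were chosen by name, from 22219 protein-coding genes of the annotation, and placed on NCBI Build 37 (mm9). Sox6 and RNA polymerase II (Pol II) had been mapped by chromatin immunoprecipitation with sequencing (ChIP-seq) in primary mouse myotubes, and input chromatin was sequenced alongside. There were 3 groups of 2 libraries, Sox6, Pol II and input. The paper describes 2 independent Sox6 and 2 independent Pol II experiments. All libraries came from wild-type C57BL/6 fetal (E18.5) limb myoblasts, grown to passage 17 and kept 48 h in medium with 2% horse serum. No group carried another genotype or treatment, so every comparison is of an immunoprecipitation with input. The p-values of the fits over all genes rest on the spread between 2 libraries a group, partly pooled with that of other genes. At the Pol II starts this spread is wholly pooled. Those of exact tests cover counting error only. Cultured cells of late passage stand here for fetal muscle.

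A sarcomere is built of thick myosin filaments, held at their middle by the M-band, and thin actin filaments anchored at the Z-disc. Titin (Ttn) spans from the Z-disc to the M-band and acts as a molecular spring, and nebulin (Neb) runs along the thin filament of skeletal muscle and sets its length. The myomesins (Myom1, Myom2, Myom3) crosslink myosin at the M-band. The myosin binding proteins C bind the thick filament in slow skeletal (Mybpc1), fast skeletal (Mybpc2) and cardiac (Mybpc3) forms, and Mybph encodes the shorter myosin binding protein H. Sox6 is a transcription factor of the Sox family that is known to repress slow fiber genes in skeletal muscle.

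The Pol II libraries held 1538757 and 2762155 mapped reads, the Sox6 libraries 2985437 and 1468604, and the inputs 21973495 and 24249850, so that the immunoprecipitates set the counting error, and exact intervals given below cover that error only. All 14 skeletal muscle markers, among them Myog and Acta1, had more Pol II than input over the gene, where 39.3% of all genes did, and their summed density was 384 and 403 RPKM (reads per kb of length, scaled to library size) in the Pol II libraries against 9.96 and 10.3 in input. The summed density of 9 fibroblast markers was 2.39 and 2.44 against 4.41 and 4.1 in input, and that of 5 endothelial markers was 0.97 and 0.857 against 1.97 and 1.94. The 3 blood genes summed to 7.37 and 8.06 against 1.65 and 1.72 in input. Most of it came from the macrophage gene Cd68 at 7.03 and 7.83 RPKM. Ptprc and Gata1 were below input, at log2 ratios of -1.81 ± 0.15 and -1.05 ± 0.41. Spi1, annotated here as Sfpi1, was not in this sum and had 0.526 and 0.553 RPKM against 0.576 and 0.614. The 3 progenitor genes summed to 7.71 and 5.68 against 1.88 and 1.89, most of it from Myf5 at 6.24 and 4.26 RPKM. Pax7 was above input (1.23 ± 0.09) and Pax3 below (-0.67 ± 0.19). The 5 heart genes summed to 2.98 and 3.56 against 1.46 and 1.79, most of it from Nppa, an atrial peptide gene, at 2.39 and 2.93 RPKM. The 5 nerve genes were at 2.58 and 2.51 against 2.13 and 2.46, and 2 smooth muscle genes at 0.69 and 0.556 against 0.747 and 0.852. The part of such cells in the values below was not tested.

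The promoters that the results below turn on are given first, as the 300 bases from 250 before to 50 after the annotated start in mm9, read along the gene. Capitals mark matches on either strand to TATAAA, to the E-box CAGCTG, to the MCAT element GGAATG and to the binding motif of Mef2, a transcription factor of muscle genes. The promoter of Ttn (chr2:76820555-76820854, minus strand) and those of Myom2 (chr8:15057403-15057702, plus strand) and Mybpc3 (chr2:90958051-90958350, plus strand) are shown because each holds a Mef2 match, and Mybph (chr1:136089775-136090074, plus strand) because it had the most Pol II per length.
Ttn: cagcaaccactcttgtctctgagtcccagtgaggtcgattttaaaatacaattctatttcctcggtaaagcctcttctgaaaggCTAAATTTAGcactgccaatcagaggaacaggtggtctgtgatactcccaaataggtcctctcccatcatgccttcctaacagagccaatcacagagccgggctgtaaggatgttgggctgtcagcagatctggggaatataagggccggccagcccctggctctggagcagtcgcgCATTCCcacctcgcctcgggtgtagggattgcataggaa
Myom2: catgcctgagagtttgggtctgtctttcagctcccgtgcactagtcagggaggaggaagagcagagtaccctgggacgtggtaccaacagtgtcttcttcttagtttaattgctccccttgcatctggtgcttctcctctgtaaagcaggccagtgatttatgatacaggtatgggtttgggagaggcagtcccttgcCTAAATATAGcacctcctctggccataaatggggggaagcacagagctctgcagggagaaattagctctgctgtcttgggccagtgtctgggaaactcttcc
Mybpc3: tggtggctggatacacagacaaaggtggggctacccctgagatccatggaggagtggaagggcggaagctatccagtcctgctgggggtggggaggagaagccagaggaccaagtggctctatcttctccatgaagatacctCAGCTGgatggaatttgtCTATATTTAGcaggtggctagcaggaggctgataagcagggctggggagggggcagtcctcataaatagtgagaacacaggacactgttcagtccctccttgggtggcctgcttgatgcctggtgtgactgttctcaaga
Mybph: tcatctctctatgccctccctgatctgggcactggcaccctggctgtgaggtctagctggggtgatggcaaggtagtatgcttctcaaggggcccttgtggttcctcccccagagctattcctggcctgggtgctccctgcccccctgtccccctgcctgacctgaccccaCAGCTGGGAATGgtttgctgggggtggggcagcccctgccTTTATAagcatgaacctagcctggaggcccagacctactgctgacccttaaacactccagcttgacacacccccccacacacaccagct
A Mef2 match stood in 3 of the 9 promoters and in 0.509% of the 22219 promoters of the same length. Counted from the start site, it began at -166 in Ttn, at -52 in Myom2 and at -90 in Mybpc3. These 3 genes differed in Pol II from 22.3 RPKM to 0.106 RPKM. In Mybph an E-box and an MCAT match stood side by side, and a TATAAA match on the other strand began at -39. CAGCTG was found in 3 of the 9 promoters and 15.2% of all, GGAATG in 3 of the 9 and 13.3% of all, and TATAAA in 1 of the 9 and 13.3% of all. A match is a description of the letters only. The set of RefSeq promoters on GRCm38 used here held an entry for 7 of the 9 genes. In 5 of them, Ttn, Myom3, Mybpc1, Mybpc3 and Mybph, its 300 bases were the same.

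A pair of the annotated starts of nebulin is shown because Pol II differed between them. The longest model, Neb-202, starts at chr2:52194318 and Neb-001 starts 3664 bp further into the gene, at chr2:52190654, both on the minus strand. The windows below are chr2:52194269-52194568 and chr2:52190605-52190904, with capitals for the same motifs.
Neb-202: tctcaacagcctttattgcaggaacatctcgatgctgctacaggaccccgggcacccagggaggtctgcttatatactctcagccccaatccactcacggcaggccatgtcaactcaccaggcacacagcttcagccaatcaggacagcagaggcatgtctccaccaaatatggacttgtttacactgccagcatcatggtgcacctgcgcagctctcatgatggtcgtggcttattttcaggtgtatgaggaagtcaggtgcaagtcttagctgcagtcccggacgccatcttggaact
Neb-001: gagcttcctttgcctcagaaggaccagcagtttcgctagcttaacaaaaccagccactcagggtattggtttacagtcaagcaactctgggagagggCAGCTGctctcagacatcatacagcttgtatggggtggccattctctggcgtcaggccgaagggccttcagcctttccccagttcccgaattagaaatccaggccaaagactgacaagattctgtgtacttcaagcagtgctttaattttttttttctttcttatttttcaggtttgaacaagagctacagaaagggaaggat
The first holds none of the motifs searched and the second a single CAGCTG.

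Titin carried more Pol II reads than any other gene. Ttn-203 (ENSMUSG00000051747.7, chr2:76542041-76820604, minus strand) spans 279 kb with 192 exons in the longest annotated model. It held 9150 and 17128 reads in the Pol II libraries, which is 0.595% and 0.62% of each library and rank 1 of 22219 genes in both. The inputs held 4610 and 4747 reads there, rank 236 and 251. Per length, Pol II was at 21.3 and 22.3 RPKM and input at 0.753 and 0.703, which ranks titin 41 and 40 by Pol II density.

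Pol II was high at the titin start and remained high over the whole length. In the window of 1 kb on each side of the start there were 158 and 315 Pol II reads against 53 and 51 input reads. RPM stands below for reads scaled to library size. As a log2 ratio of Pol II over input RPM, with 0.5 reads added to each count and fitted with limma over all genes, the start was at 5.58 ± 0.24 (SE, n = 2 libraries a group, adjusted p = 1.03e-113 with Benjamini-Hochberg over all genes). Cut into 3 equal sections of 92.9 kb each, the 5', middle and 3' section were at 4.95 ± 0.06, 4.78 ± 0.07 and 4.97 ± 0.06. Their limma adjusted p-values were 4.93e-09, 9.51e-09 and 1.92e-09. Both Pol II libraries lay above both inputs in each of these regions. In the Pol II fit of the starts of all genes limma used 1 common spread for windows of like level, which makes adjusted p-values there very small.

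Cut into 20 equal bins of 13.9 kb, titin had its highest Pol II density in the first bin, 30.5 and 33.1 RPKM, and its lowest in the second, 14.3 and 14.4 RPKM, in both libraries. Input was lowest in the second bin too, at 0.533 and 0.48 RPKM. It was highest in the first bin in replicate 1 (0.993 RPKM) and in the 5th in replicate 2 (0.971 RPKM). Upstream of the start, Pol II fell from 11.4 and 12.3 RPKM in the nearest 2 kb to 1.08 and 2.29 RPKM from 2 to 5 kb. Past the 3' end it stayed at 31.5 and 27.5 RPKM over 2 kb and 13.6 and 25 RPKM up to 5 kb, before dropping to 2.08 and 2.68 RPKM. The noncoding Gm13938 lies on the opposite strand inside titin over 63933 bp, and reads of the 2 transcripts cannot be told apart by position. Plekha3, the neighbour 7156 bp beyond the 3' end, had 0.814 and 0.79 RPKM.

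Nebulin (ENSMUSG00000026950.9, chr2:51992167-52194318, 202152 bp, 157 exons) was second of the 9 genes by Pol II reads, with 3011 and 5502, rank 8 of all genes in both libraries. Input held 3228 and 3372 reads. At the start of the longest model there were only 3 and 5 Pol II reads against 27 and 39 in input, and the log2 ratio of 0.58 ± 0.48 did not pass the test (limma adjusted p = 0.373, 95% interval -0.36 to 1.52). With 2 reads added in place of 0.5 the ratio was 0.94 and was called (limma adjusted p = 0.0303). This setting called 60.8% of all starts in place of 40.3%.

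The gene body differed from that start. The sections of nebulin, 67.4 kb each, were at log2 ratios of 3.86 ± 0.07, 3.70 ± 0.07 and 3.79 ± 0.08, all called higher (limma adjusted p from 1.77e-08 to 6.59e-08). At the start of Neb-001 the window of 1 kb on each side held 68 and 121 Pol II reads against 47 and 49 in input, a log2 ratio of 4.36 and 4.43 by replicate number. Upstream of Neb-202, Pol II was at 0.975 and 1.09 RPKM over 2 kb with input at 0.614 and 0.887. So Pol II was near input at the outer start and 22.1 RPKM in the first library at the inner one. Density was highest in the first of 20 bins, 15.2 and 15.6 RPKM, and lowest in the 10th, 7.14 and 7.7 RPKM. Input replicate 1 was also highest in the first bin (0.95 RPKM) and lowest in the 10th (0.626 RPKM). Input replicate 2 was highest in the second (0.955 RPKM) and lowest in the 16th (0.583 RPKM). Past the 3' end Pol II was at 11.7 and 8.69 RPKM over 2 kb and 11.5 and 10.4 RPKM up to 5 kb. Rif1, 14264 bp away, had 0.616 and 0.694 RPKM.

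**Figure D1:**
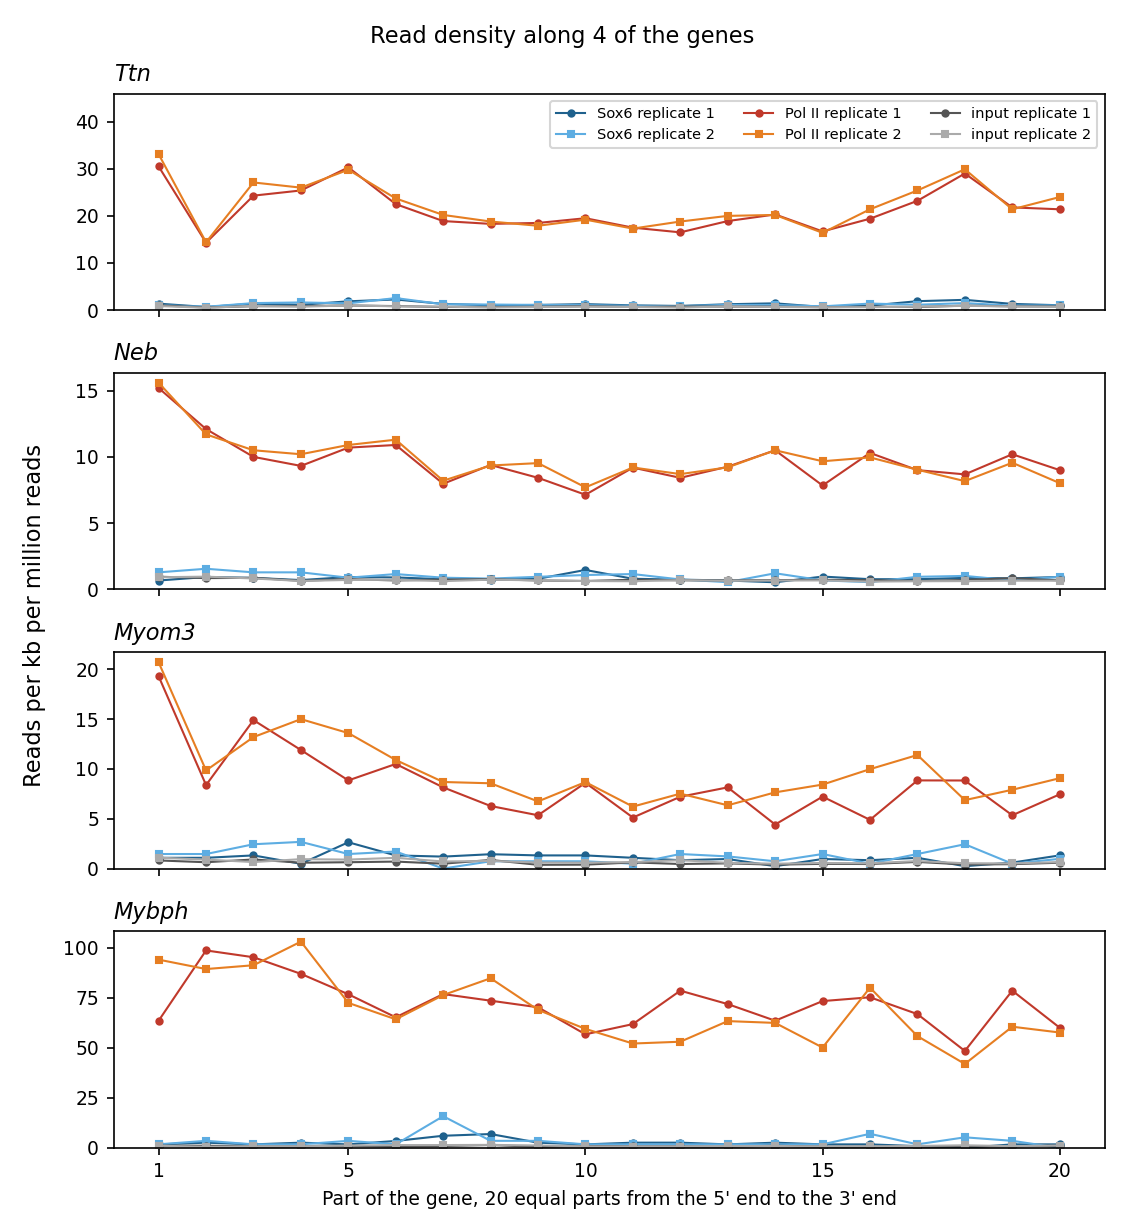
Read density in RPKM along Ttn, Neb, Myom3 and Mybph, in 20 equal bins from the 5' end to the 3' end, with 1 line for each of the 6 libraries. The 2 Pol II lines run close together and far above input in all bins. Both are highest in the first bin in Ttn, Neb and Myom3. Input replicate 1 in Ttn and Neb and input replicate 2 in Myom3 are highest in that bin too. The vertical scale differs between genes.

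Of the myomesins, Myom3 had the most Pol II. Myom3 (ENSMUSG00000037139.9, chr4:135315630-135371479, plus strand, 55.9 kb, 37 exons) held 729 and 1523 Pol II reads, 8.48 and 9.87 RPKM against 0.571 and 0.717 RPKM in input. Its start had 51 and 83 Pol II reads against 42 and 56 in input, a log2 ratio of 3.91 ± 0.26 (limma adjusted p = 1.09e-50). Its sections were at 4.01 ± 0.13, 3.54 ± 0.14 and 3.87 ± 0.15. The first of its 20 bins was the highest in both libraries, at 19.3 and 20.7 RPKM. Input was highest in the third bin in replicate 1 (0.913 RPKM) and in the first in replicate 2 (1.09 RPKM).

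Myom2 (ENSMUSG00000031461.4, chr8:15057653-15133541, 75.9 kb), which encodes M-protein, had 3.7 and 4.2 RPKM of Pol II against 0.576 and 0.594 RPKM of input. The start had 17 and 23 Pol II reads against 32 and 37 in input, at a log2 ratio of 2.70 ± 0.32 and the sections at 2.96 ± 0.11, 2.52 ± 0.13 and 2.64 ± 0.12. The 10th of its 20 bins, 3794 bases with no unknown base in the genome sequence, had 0 reads in all 6 libraries. Only reads that map to a single place were kept by the authors, and the cause of this gap was not tested.

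Myom1 (ENSMUSG00000024049.7, chr17:71368861-71476195, 107 kb), the general myomesin, had the least of the myomesins, 2.65 and 2.59 RPKM against 0.65 and 0.629 RPKM. Its start had 23 and 25 Pol II reads against 36 and 61 in input, at 2.53 ± 0.29, and its sections were at 2.09 ± 0.12, 1.96 ± 0.10 and 2.04 ± 0.14. All 12 starts and sections of the myomesins were called higher, with limma adjusted p-values from 1.09e-50 to 6.06e-06, and with weights for depth (voom) the starts of Myom1 and Myom2 were not (adjusted p = 0.141 and 0.168). Myom1 lies inside the long noncoding Gm16724 of the same strand, which had 1.33 and 1.32 RPKM of Pol II over its length, the reads of Myom1 included.

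The myosin binding proteins spanned the widest range. Mybph (ENSMUSG00000042451.6, chr1:136090025-136097808, 7.78 kb, 11 exons) had 863 and 1484 Pol II reads, 72.1 and 69.0 RPKM, rank 6 and 8 of 22219 genes by density. Input held 140 and 180 reads, 0.819 and 0.954 RPKM. For comparison Actb, the cytoskeletal actin gene, had 26.4 and 35.8 RPKM of Pol II. The start of Mybph had 162 and 323 Pol II reads against 42 and 42 in input, at a log2 ratio of 5.92 ± 0.24 (limma adjusted p = 3.96e-127) and its sections at 6.47 ± 0.14, 6.21 ± 0.15 and 6.21 ± 0.16. Pol II stayed at 64.0 and 69.0 RPKM over the 2 kb past the gene and 34.4 and 43.6 RPKM up to 5 kb. Adora1, on the opposite strand, overlaps the last 2009 bp of Mybph, and its 10.3 and 11.1 RPKM of Pol II include these shared reads.

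Mybpc1 (ENSMUSG00000020061.10, chr10:87981024-88067897, 86.9 kb) had 5.35 and 4.99 RPKM of Pol II against 0.873 and 0.84 RPKM of input. Its start had 13 and 33 Pol II reads against 43 and 59 in input, a log2 ratio of 2.23 ± 0.29 (limma adjusted p = 2.59e-13, and 0.21 with weights for depth). The sections were nearly level, at 2.58 ± 0.09, 2.59 ± 0.11 and 2.62 ± 0.10. Pol II was lowest in the last of 20 bins, at 2.84 and 3.33 RPKM. It was higher again from 5 to 10 kb past the 3' end, at 6.5 and 6.59 RPKM. Chpt1 lies 14206 bp downstream with 0.809 and 0.691 RPKM over its length.

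Mybpc2 (ENSMUSG00000038670.8, chr7:51757088-51780004, 22.9 kb) had 14 and 21 Pol II reads, 0.397 and 0.332 RPKM, close to its input at 0.375 and 0.416 RPKM. Its start had 5 and 3 Pol II reads against 13 and 16 in input and was called higher, with a log2 ratio of 1.72 ± 0.63 (limma adjusted p = 0.0161). From the reads summed over libraries the ratio was 2.96 (exact 95% interval 1.17 to 6.65, counting error only). This call was lost with 500 bp or 2 kb on each side (adjusted p = 0.147 and 0.195), with weights for depth (0.998), and without input replicate 1 (0.259) or input replicate 2 (0.18). The sections of Mybpc2 were at -0.85 ± 0.46, -0.33 ± 0.44 and 0.63 ± 0.29 and none passed the test. The 3' section was called higher with 2 reads added (0.80, limma adjusted p = 0.0259). It was also called when scaled to reads outside peaks (0.98, limma adjusted p = 0.0213). Without Pol II replicate 1 the 5', middle and 3' section were at -1.27, -0.75 and 0.68. Fam71e1, 232 bp past the 3' end on the opposite strand, had 1.46 and 1.7 RPKM of Pol II against 0.492 and 0.522 in input.

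Mybpc3 (ENSMUSG00000002100.8, chr2:90958301-90976673, 18.4 kb) had 3 and 23 Pol II reads, 0.106 and 0.453 RPKM, against 149 and 187 input reads, 0.369 and 0.42 RPKM. No Pol II read fell within 1 kb of its start, where input had 17 and 25 (limma adjusted p = 0.0668, not called). With 2 reads added in place of 0.5, the log2 ratio there went from -1.92 to -0.02. Without Pol II replicate 1 or Pol II replicate 2 it was at -2.34 and -1.49. Allowing 3 reads over both Pol II libraries, the summed density was at least 1.3-fold lower than input, by counting error only. The 5' section had 0 and 1 Pol II reads against 46 and 70 in input and was called lower (limma adjusted p = 0.00724). The ratio of the summed reads was 0.0926 (exact 95% interval 0.00233 to 0.526). This section was not called without input replicate 1 (adjusted p = 0.122) or input replicate 2 (adjusted p = 0.229). The middle section had 0 and 11 reads and the 3' section 3 and 11, and neither passed the test. The middle section was at a log2 ratio of -3.08 without Pol II replicate 2 and of 0.60 without Pol II replicate 1. The 3' section was called higher with 2 reads added (0.88, limma adjusted p = 0.0457) and was at 1.02 without Pol II replicate 1. Madd, 844 bp past the 3' end, and Sfpi1, 2388 bp upstream, had 0.434 and 0.335 RPKM and 0.526 and 0.553 RPKM.

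**Figure D2:**
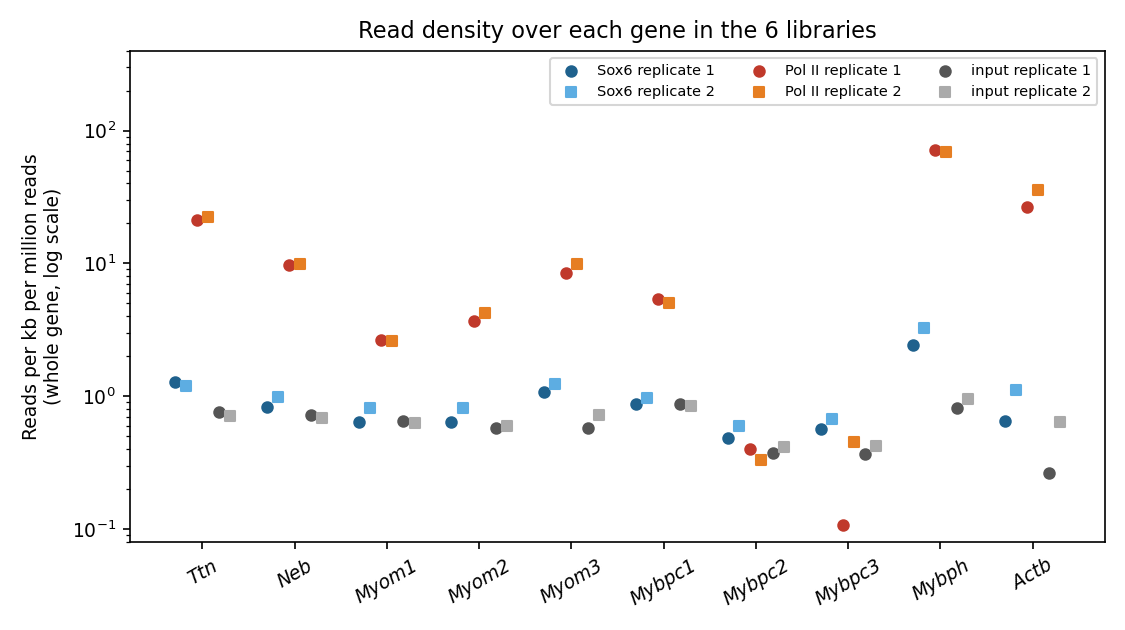
RPKM over each gene (log scale) in the 6 libraries, for the 9 genes and Actb. Pol II exceeds input in both libraries in 7 of the 9 genes, from 2.59 RPKM in Myom1 to 72.1 RPKM in Mybph, and is at or under 0.453 RPKM in Mybpc2 and Mybpc3.

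By Pol II RPKM the 9 genes fell in the order Mybph, Ttn, Neb, Myom3, Mybpc1, Myom2, Myom1, Mybpc2 and Mybpc3. Neb (9.68 to 9.85) and Myom3 (8.48 to 9.87) overlapped between libraries, as did Mybpc2 and Mybpc3. The other neighbours in this order did not overlap.

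In counts, 7 of the 9 starts were called higher in Pol II than in input, all but Neb-202 and Mybpc3, and the median of the 9 log2 ratios was 2.53. With weights for depth 3 of the 9, Ttn, Myom3 and Mybph, were called, and those of Myom1, Myom2, Mybpc1 and Mybpc2 were not. Of all starts tested, 40.3% were called higher, with a median of 0.74, and 3.65% with weights for depth. In the 5', the middle and the 3' section the same 7 genes, all but Mybpc2 and Mybpc3, were called higher each time. The shares over all genes were 35.0%, 29.0% and 35.4%, with medians of 0.25, 0.07 and 0.26 against 2.96, 2.59 and 2.64 for the 9 genes. The 5' section of Mybpc3 was the only section called lower, beside 17.6% of all genes for the 5' section.

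**Figure D3:**
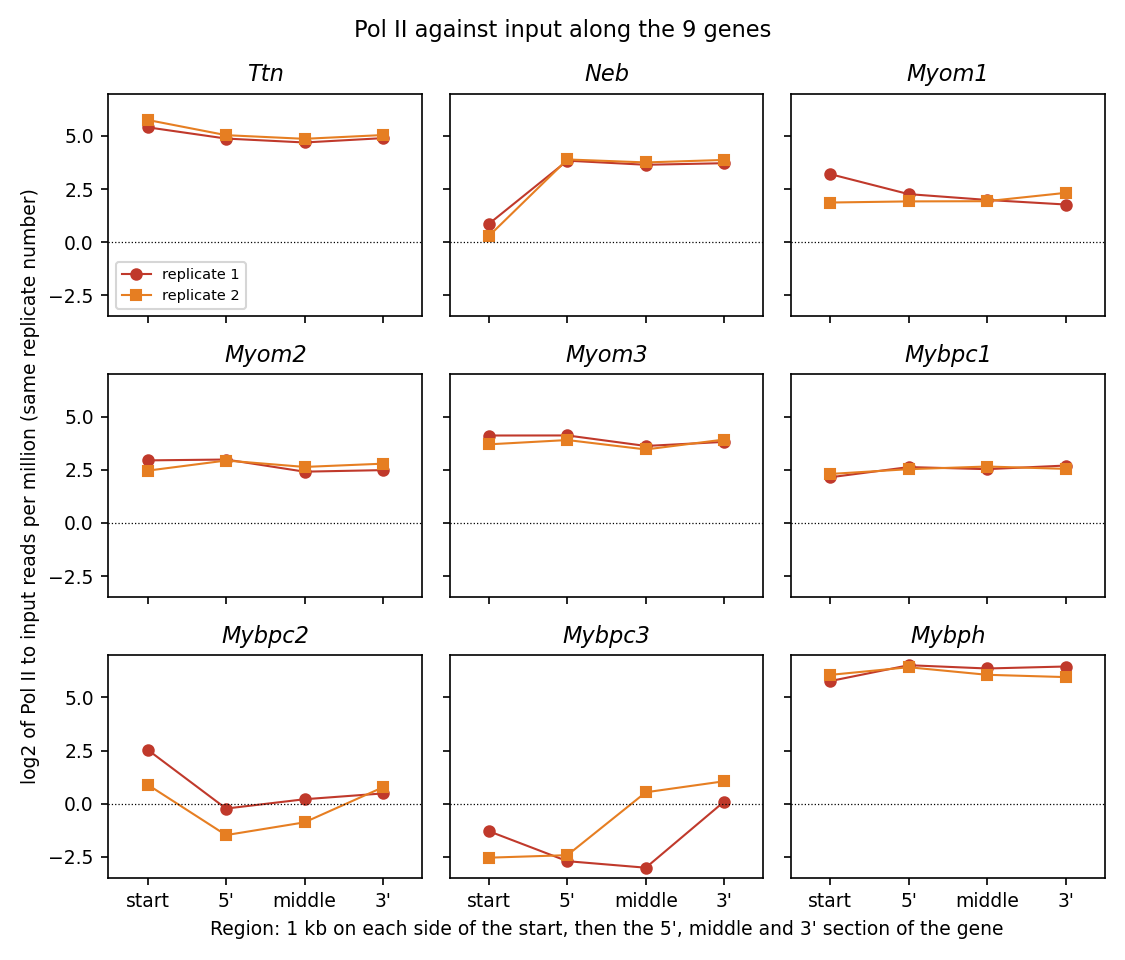
Log2 of Pol II RPM over input RPM, by replicate number, at the start and in the 5', middle and 3' section of each of the 9 genes, with 1 line for each replicate. Ttn, Myom1, Myom2, Myom3, Mybpc1 and Mybph are above 0 in all regions, Neb is near 0 at the start of its longest model only, and the lines of Mybpc2 and Mybpc3 lie on both sides of 0.

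Whether Pol II was weighted to 1 end of the gene was tested as the difference of the 5' and the 3' section, relative to the same difference in input. No gene was called in either direction by limma, 0% of 14686 genes, although 3078 had an unadjusted p under 0.05. With the spread moderated along a trend on read depth, a choice made after seeing the data, limma called 878. In titin the log2 difference was -0.01 ± 0.21 (95% interval -0.61 to 0.58), and in nebulin 0.07 ± 0.22 (-0.55 to 0.69). With the trend on depth the interval of titin was -0.10 to 0.08. Myom1, Myom2, Myom3, Mybpc1 and Mybph had values from -0.04 to 0.32. Mybpc2 was at -1.48 ± 0.45 (limma adjusted p = 0.201) and Mybpc3 at -3.14 ± 0.29 (limma adjusted p = 0.0747), both on few reads. Mybpc3 was called under the trend (limma adjusted p = 0.0324), beside 5.98% of all genes. Without Pol II replicate 1 or Pol II replicate 2 it was at -3.21 and -3.08. Mybpc2 was at -1.96 without Pol II replicate 1.

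The peaks that the authors called in the Pol II libraries covered most of titin. Titin had 91 and 46 peaks that covered 80.1% and 91.9% of the gene, and nebulin 130 and 106 that covered 32.7% and 60.9%. There were 31 and 26 in Myom3, 25 and 32 in Mybpc1, 7 and 17 in Myom2, 7 and 3 in Myom1 and 1 in each library in Mybph, where a single peak spanned the gene. Mybpc2 and Mybpc3 had 0. In titin and nebulin the second library had fewer peaks and covered more of the gene.

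The genes most like titin in their log2 ratios at the start and in the sections, by Euclidean distance over these 4 values among 16813 genes, were Eno1 (0.69), which encodes a glycolytic enolase, Des (0.7), the muscle intermediate filament desmin, and Chrng (0.84), the fetal subunit of the acetylcholine receptor. All of them are short, from 6.03 to 11.9 kb, so that start and sections lie close together in them. For nebulin they were Rbm38 (0.33), Myadm (1.15) and Ak1 (1.16), which encodes an adenylate kinase. In these the start of the longest model was again low, from 0 to 1.26, with sections between 2.96 and 3.97.

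Genes that work with these proteins were read in the same fits. Of 20 partners of titin and the M-band, 16 starts were called higher in Pol II, and 18 of 19 genes were higher in at least 1 section, while 3 were lower in one. Over all genes, 40.3% of starts were higher, 44.3% of genes were higher in at least 1 section and 26.0% were lower in one. Over the whole gene the log2 ratio was highest for Tcap, which caps titin at the Z-disc (3.70 ± 0.40), Ankrd23 (3.65 ± 0.20), an ankyrin repeat protein that binds titin, and Obsl1 (3.40 ± 0.12), and lowest for Fhl1 (-0.47 ± 0.15). Ank1, named after its values were seen, was lower than input in its 5' and middle sections (-0.93 and -1.11) and higher in its 3' section (2.27).

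Of 13 relatives of nebulin and genes of thin filament length (Kbtbd13 was not found), 10 starts and 10 genes in at least 1 section were called higher, beside the same 40.3% and 44.3%, and 2 genes were lower in a section. Xirp1 (3.88 ± 0.19), Lmod2 (3.75 ± 0.14), a leiomodin that nucleates actin, and Kbtbd5 (3.73 ± 0.19) were the highest. Nebl, the cardiac relative of nebulin, was the lowest at -1.50 ± 0.10, against 3.79 ± 0.06 for nebulin. Of 18 thick filament genes, 10 starts were called higher, as were 9 of 17 genes in at least 1 section, which is nearer to those shares. There 3 genes were lower in a section, and 1 start was lower, beside 1.38% of all starts. Myh3, the embryonic myosin heavy chain (6.61 ± 0.08), Mylpf, a fast regulatory light chain (6.08 ± 0.15), and Myh8, the perinatal one (5.01 ± 0.09), were the highest, and Myh13 the lowest (-1.72 ± 0.21). The median over the whole gene was 2.61, 1.91 and 0.74 in these lists, 2.75 in the 9 genes and 0.20 in all genes.

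No common Sox6 peak lay in or within 20 kb of any of the 9 genes. Of all 22219 genes 4.32% had one, as did 9.33% of those of 50 kb or more. The authors deposited 1066 peaks that both Sox6 replicates share within 50 bp. The nearest to a member was 32.6 kb upstream of Mybph, at chr1:136057122-136057401, with 15 and 17 Sox6 reads in a 450 bp window against 9 and 7 in input. The peak was called on these reads, so no test of them is given. The others lay 73.9 kb from nebulin, 107 kb from Mybpc3, 128 kb from titin and from 177 to 2080 kb from the rest.

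Peaks called in 1 replicate only were found at 6 of the 9 genes, 11 in all, of which 10 came from Sox6 replicate 1 and 1 from replicate 2. Titin had 4 (2 upstream, 2 downstream), Myom3 and Mybph 2 each, and Neb, Mybpc1 and Mybpc2 1 each, while Myom1, Myom2 and Mybpc3 had none. Of all genes, 8.73% had a peak with no peak of the other replicate within 50 bp, and 18.6% of those of 50 kb or more, a length that 6 of the 9 genes reach. In their own replicate these windows held 4 to 16 Sox6 reads and in the other 1 to 6. For each, the Sox6 reads of the other replicate were compared with its input in the same 450 bp window. The exact two-sided binomial test, adjusted over all peaks of the list, set 1 library against 1 and covers counting error only.

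Of the 10 peaks from replicate 1, 5 were called higher in replicate 2 by this test. In that list the share was 67.0% of all 2888 peaks, which include those shared by both replicates, and 51.6% of the 1859 with no peak of replicate 2 within 50 bp. In the deposited interval in place of the 450 bp window, 2 of the 10 were called, the peak in Mybph and the one 2167 bp upstream of titin, beside 31.2% of the list. With repeated positions counted once, 4 were called, all but the one upstream of titin, beside 67.8% of the list. With 500 bp on each side of the centre 5 were called, with a peak past titin in place of the one upstream, beside 69.4% of the list. With both inputs pooled 6 were called, the peak upstream of nebulin added, beside 69.5% of the list. The peak from replicate 2, in an intron of Myom3, was not (adjusted p = 0.243, exact binomial test), beside 84.4% of all 1734 peaks of its list and 64.4% of the 706 with no peak of replicate 1 within 50 bp. The lowest adjusted p was at Myom3, 219 bp upstream of its start (chr4:135315292-135315531). Its window had 7 and 6 Sox6 reads against 10 and 15 in input, a ratio in replicate 2 of 6.92 (exact 95% interval 2.1 to 18.0, adjusted p = 0.00199, exact binomial test). Both Sox6 replicates stood above both inputs there, replicate 1 by selection, as it called the peak. Pol II was at 4.55 and 3.98 RPM in the same window.

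The promoter of Myom3 (chr4:135315380-135315679, plus strand) is shown with the 152 bases that lie in this peak in capitals.
Myom3: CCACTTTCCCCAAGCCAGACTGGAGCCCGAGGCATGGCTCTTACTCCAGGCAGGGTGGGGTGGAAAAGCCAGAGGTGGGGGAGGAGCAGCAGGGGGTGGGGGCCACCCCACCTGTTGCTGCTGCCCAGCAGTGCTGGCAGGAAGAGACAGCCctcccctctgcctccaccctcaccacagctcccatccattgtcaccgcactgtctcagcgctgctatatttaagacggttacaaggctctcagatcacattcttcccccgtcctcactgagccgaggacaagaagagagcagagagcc
The peak held no match to the Sox core motif, searched on both strands as ACAAAG or ACAATG and, with another first base, TCAAAG or TCAATG. The promoter holds one such match outside the peak, at -62. Sox core matches stood in 40.2% of all promoters of this length.

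The other peaks of Sox6 replicate 1 that were higher in replicate 2 were in and past Mybph, upstream of titin and past Mybpc2. The peak in an intron of Mybph, 2776 bp into the gene (chr1:136092592-136093011), had 12 and 5 Sox6 reads against 9 and 12 in input (ratio in replicate 2 of 7.27, exact 95% interval 1.9 to 21, adjusted p = 0.00424, exact binomial test). Pol II was at 35.1 and 35.8 RPM in the same window. The peak 2833 bp past Mybph, inside Adora1, had 7 and 4 Sox6 reads against 10 and 11 (adjusted p = 0.0149, exact binomial test), with Pol II at 26.6 and 31.9 RPM. The one 14947 bp past Mybpc2 had 5 and 3 against 5 and 7 (adjusted p = 0.0262, exact binomial test), with Pol II at 11.7 and 9.41 RPM, in a stretch from 10 to 20 kb past Mybpc2 that held 13.6 and 13.5 RPKM of Pol II. At 2167 bp upstream of titin there were 10 and 4 Sox6 reads against 15 and 13 (adjusted p = 0.0224, exact binomial test), with Pol II at 0.65 and 1.81 RPM. Pol II thus differed widely between these windows, and its part in the Sox6 reads was not tested.

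The peaks that were not called higher in the other replicate rested on 1 to 3 reads there. Upstream of nebulin, 12493 bp from the start of Neb-202, there were 16 and 3 Sox6 reads against 7 and 12 in input (ratio in replicate 2 of 4.62, exact 95% interval 0.748 to 15.3). This was the highest count of the 11 peaks in its own replicate. Upstream of Mybpc1, 10244 bp from the start, there were 8 and 1 Sox6 reads against 13 and 16. At 907 bp upstream of titin there were 8 and 1 against 12 and 9. The 2 peaks downstream of titin had 8 and 2 Sox6 reads each, and the one nearer to the gene lay in the stretch where Pol II runs past the 3' end, with 7.8 and 11.6 RPM of Pol II.

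The deposited intervals of 3 of the peaks at titin and of the one past Mybph are shown because each holds a Sox core match, in capitals; the peak of titin that lies in Plekha3 also holds one and is not shown. They are chr2:76822752-76822791, chr2:76821472-76821551 and chr2:76538392-76538431 for titin and chr1:136100572-136100711 for Mybph, all on the plus strand.
Ttn 2.2 kb upstream: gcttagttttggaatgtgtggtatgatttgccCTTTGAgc
Ttn 0.9 kb upstream: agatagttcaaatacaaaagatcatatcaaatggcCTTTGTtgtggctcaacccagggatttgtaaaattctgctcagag
Ttn 3.6 kb past the 3' end: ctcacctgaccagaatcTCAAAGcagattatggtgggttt
Mybph 2.8 kb past the 3' end: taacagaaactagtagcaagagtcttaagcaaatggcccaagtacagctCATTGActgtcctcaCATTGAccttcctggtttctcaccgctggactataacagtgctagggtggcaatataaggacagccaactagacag
In windows of 240 bases at the centre, 7 of the 11 peaks held such a match (63.6%), beside 63.3% of the windows at all peaks of Sox6 replicate 1 and 70.3% of those at the common peaks. CAGCTG stood in 5 of the 11, beside 53.0% and 59.4%.

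**Figure D4:**
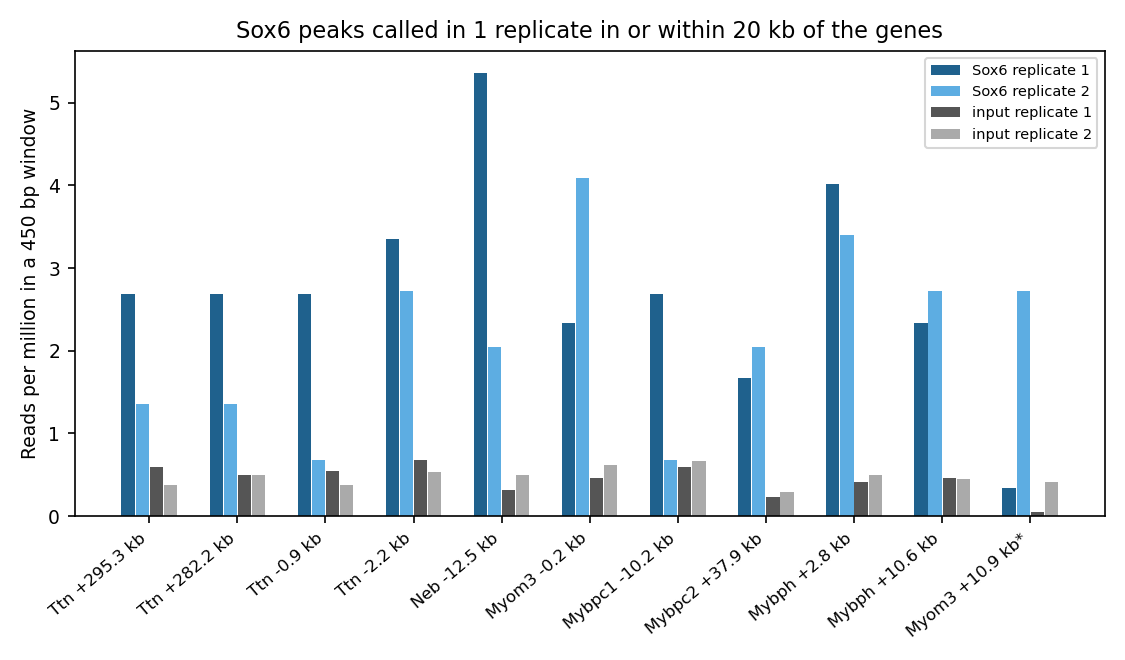
RPM in a 450 bp window at the 11 Sox6 peaks called in 1 replicate in or within 20 kb of the genes, with 1 bar for each Sox6 and input library; labels give the distance of the centre from the start site in kb, and the asterisk marks the peak from replicate 2. Both Sox6 bars stand above both input bars at all peaks but the peak from replicate 2, where replicate 1 rests on 1 read. The bar of the replicate that called a peak is above input by selection, and the other bar rests on 1 to 6 reads.

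Over the whole gene, Sox6 was called higher than input in titin, Myom3 and Mybph, 3 of the 9, beside 5.46% of all genes. Titin held 1065 and 486 Sox6 reads against 4610 and 4747 in input, a log2 ratio of 0.76 ± 0.08 (limma adjusted p = 0.00559). Myom3 held 178 and 101 against 701 and 971, at 0.85 ± 0.14 (limma adjusted p = 0.0176). Mybph held 56 and 37 against 140 and 180, at 1.67 ± 0.22 (limma adjusted p = 0.0145). Both Sox6 libraries were above both inputs per length in these 3 genes, and also in all the others of the 9 but Myom1. The calls of titin and Mybph were kept under 8 other settings, chosen after seeing the data, and that of Myom3 under all but 1 (adjusted p = 0.077 without input replicate 1). The median of the 9 was 0.46 and that of all genes 0.21. Pol II was also higher than input in these 3 genes, and its part in the Sox6 reads was not tested.

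At the starts, 1 of 9 was called higher, Myom3, where Sox6 had 20 and 9 reads against 42 and 56 in input, a log2 ratio of 1.65 ± 0.34 (limma adjusted p = 0.0319). Over all genes 0.398% of starts were called. Under 14 other settings this start was called in 10, with adjusted p-values from 4.13e-05 to 0.999. It was lost without input replicate 1 (adjusted p = 0.999) or input replicate 2 (0.544), with 2 kb on each side (0.237) and with 2 reads added (0.057). Leaving out a Sox6 library raised the number of starts called from 1 of 9 to 6 without replicate 1 and 3 without replicate 2, and the share of all starts from 0.398% to 38.2% and 17.0%. The lone Sox6 library was then assumed to vary like the inputs, and the part of this in the rise was not tested. The window of the Myom3 start holds the peak 219 bp upstream described above, and Pol II in it was at 16.6 and 15 RPKM. The other starts were at log2 ratios from -0.10 in Myom2 to 1.31 in Mybpc2, on 2 to 17 Sox6 reads a library, and the Mybpc2 start on 2 and 4. The median of the 9 was 1.10 and that of all starts 0.42.

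In the sections, titin was the only one of the 9 genes called. Its 5' section held 395 and 197 Sox6 reads against 1672 and 1740 in input, a log2 ratio of 0.85 ± 0.09 (limma adjusted p = 0.0236, called under all 12 other settings). Its 3' section held 378 and 147 against 1499 and 1569, at 0.76 ± 0.12 (limma adjusted p = 0.0315, called under all 12). The middle section, with 292 and 142 against 1439 and 1438, was at 0.65 ± 0.10 and did not pass (limma adjusted p = 0.0671), though it was called under 6 of 12 other settings, with adjusted p-values from 1.19e-06 to 0.113. With the replicate number as a block, 13 of the 27 sections of the 9 genes were called in place of 2, and the share of all sections of all genes went from 0.377% to 5.54%. Without the block the shares over all genes were 0.0404%, 0.0750% and 1.01% in the 5', middle and 3' section. Titin is the longest gene of the set and has the most reads, and its Pol II was 31.0-fold and 31.3-fold above input in these sections. The part of either in the Sox6 reads was not tested.

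Mybph had larger ratios on fewer reads, and its sections were not called one by one. They held 21 and 13, 24 and 13, and 11 and 11 Sox6 reads, at log2 ratios of 1.76 ± 0.30, 1.91 ± 0.27 and 1.31 ± 0.41, with limma adjusted p-values of 0.0809, 0.0635 and 0.134. Both Sox6 libraries were above both inputs in RPKM over the gene, at 2.41 and 3.24 against 0.819 and 0.954, and rank 52 and 55 of all genes by Sox6 density. The highest of its 20 bins were the 8th in replicate 1 (6.89 RPKM) and the 7th in replicate 2 (15.8 RPKM), near the peak 2776 bp into the gene. Both inputs were highest in the 8th bin too, at 1.4 and 1.48 RPKM. A bin is only 389 bp long, so the Sox6 values rest on few reads. The 3 sections of Myom3 were at 0.91, 0.75 and 0.84 and those of nebulin at 0.39, 0.31 and 0.33, and none was called. Under 12 other settings each section was called in 3 to 5 for Mybph, in 4 to 5 for Myom3 and in 2 for nebulin. The medians of the 9 genes were 0.67, 0.31 and 0.34 in the 5', middle and 3' section, and those of all genes 0.159, 0.155 and 0.202.

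The number of Sox6 calls depended on which libraries entered. Leaving out a Sox6 library raised the number of sections called from 2 of 27 to 20 without replicate 1 and 13 without replicate 2. Calls rose over all genes too, from 0.377% of sections to 33.2% and 19.8%. Over the whole gene the 9 genes went from 3 calls to 8 and 4, and all genes from 5.46% to 35.1% and 20.5%. With the block they went to 4 and to 14.1%. With 1 Sox6 library left out, the lone Sox6 library was assumed to vary like the inputs. The part of this in the rise, and the cause of the change with the block, were not tested.

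**Figure D5:**
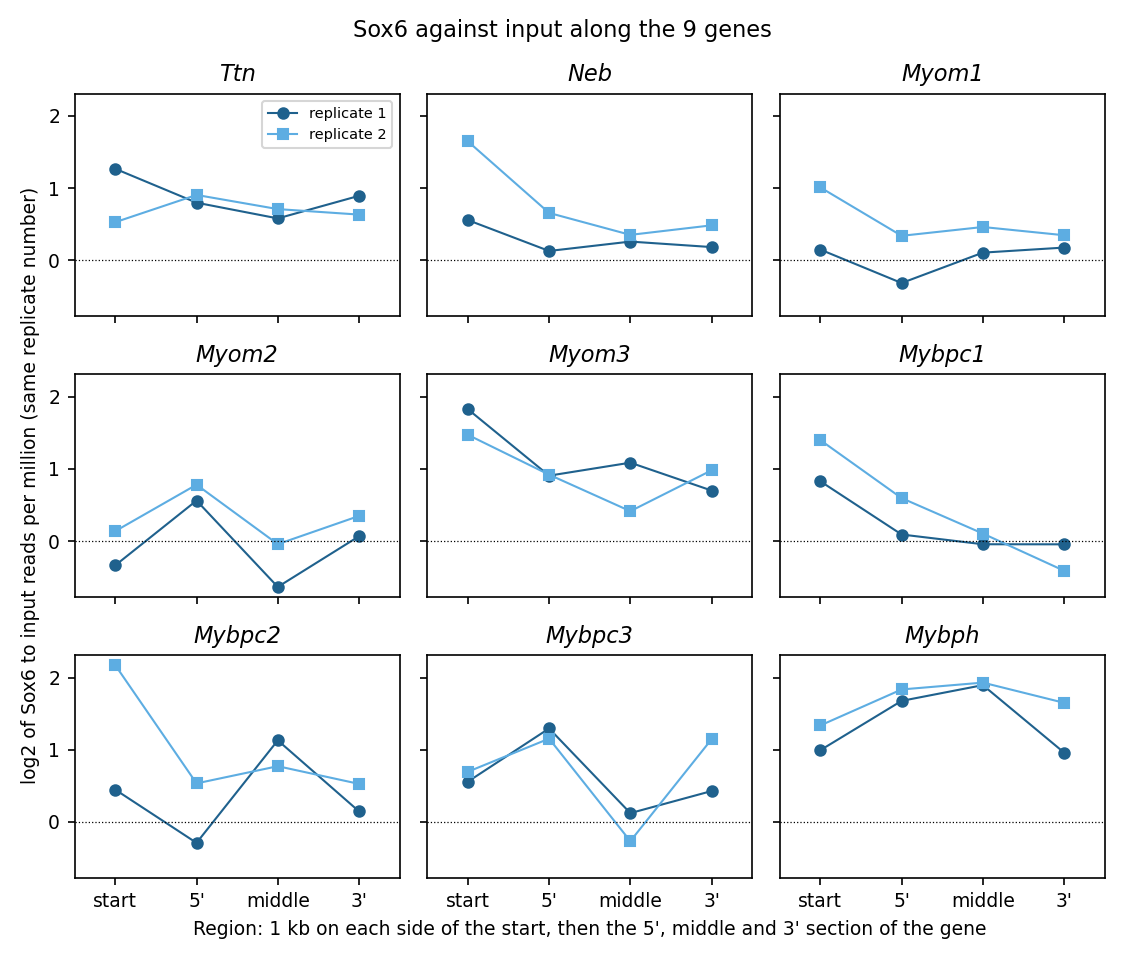
Log2 of Sox6 RPM over input RPM, by replicate number, at the start and in the 5', middle and 3' section of each of the 9 genes, with 1 line for each replicate. Both replicates of Ttn, Neb, Myom3 and Mybph lie above 0 in every region, and at least 1 replicate of Myom1, Myom2, Mybpc1, Mybpc2 and Mybpc3 falls below 0 in at least 1 region.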

How the data were processed

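The authors mapped single-end reads of the 6 libraries to NCBI Build 37 with Bowtie 0.12.5, kept uniquely mapped reads, and called peaks against the input of each experiment; whether repeated positions were removed is not given in the sources used here. What the authors deposited are read and peak positions, and an unnamed score that the authors gave each Pol II peak was not used. There is no column of counts, so reads were counted here by their 5' end, in windows of 1 kb on each side of the start of the longest annotated model, in the gene and in its 3 equal sections (genes of at least 3 kb), with those under 10 reads over 4 libraries left out.

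Log2 RPM (reads scaled to library size, 0.5 reads added) of each immunoprecipitation were compared with input over all genes with limma 3.58.1 in R 4.3.3, with Benjamini-Hochberg adjustment and calls at an adjusted p of 0.05. Peaks of 1 replicate were tested on reads of the other, its Sox6 against its input in 450 bp windows, with a two-sided exact binomial test. Scripts used Python 3.11.15 and were tested on simulated data. The text names the 9 genes, Actb, and in each list the 3 genes with the highest and the 1 with the lowest Pol II ratio over the gene. It also names the 3 nearest genes in pattern for titin and nebulin, and some, not all, of the neighbours within 20 kb. The genes and lists were chosen with earlier results of these data known. Differences between the replicates of an immunoprecipitation and of input had correlations of -0.0652 to 0.0523 over features. Counting error lowers such correlations, so they cannot tell whether libraries that share a replicate number were paired. Alternatives were other windows, filters, added reads, scalings and weights, and each library left out.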

Additional observations from a re-analysis of the deposited data

How the results depend on the processing

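With 2 libraries a group and few Sox6 reads, the number of Sox6 calls moved most, and the cause was not tested. Counts in this section are of calls higher than input, but for the differences between sections, counted in either direction. With 2 reads added, 0 Sox6 starts and 4 Sox6 sections were called in place of 1 and 2, beside 0.00958% in place of 0.398% of all starts and 2.26% in place of 0.377% of all sections. With at least 10 immunoprecipitation reads 2 starts were called (15.7% of all), and with 2 kb on each side 0 (0.0328%). With weights for depth (voom) 9 Sox6 sections (3.83% of all) and 3 in place of 7 Pol II starts (3.65% in place of 40.3%) were called. Leaving out 1 library gave 0 to 6 Sox6 starts (0.0606% to 38.2% of all), 3 to 20 Sox6 sections (0.168% to 33.2%), 2 to 8 in place of 3 genes with more Sox6 over their length (0.812% to 35.1%), 6 to 7 Pol II starts (32.4% to 49.8%) and 0 to 2 in place of 0 differences between the 5' and 3' sections (0% to 28.3%); a lone library is then assumed to vary like the other group. With the spread by depth, added after seeing the data, 1 such difference was called (5.98% of all). Within 50 kb there was 1 common Sox6 peak in place of 0. There 9 of 17 single-replicate peaks were called in place of 5 of 11, and in the deposited interval 2 of 11. Of all peaks of Sox6 replicates 1 and 2, 67.0% and 84.4% were called, and 31.2% and 45.6% in the deposited interval. The 21 Pol II sections stayed between 21 and 24 in all alternatives run.

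With the replicate number as a block (replicate block), 7 Pol II starts, 21 Pol II sections and 1 Sox6 start were called as before, while 13 in place of 2 Sox6 sections and 4 in place of 3 genes over their length were called for Sox6, beside 5.54% in place of 0.377% of all sections and 14.1% in place of 5.46% of all genes. The replicate number comes from the labels, and the peaks were called against the input of each experiment.

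Scaling to reads outside peaks raised all Pol II log2 ratios by 0.35 and those of Sox6 by 0.033. Values that were not called and changed sign under an alternative were as follows. The difference between sections ranged with 1 library left out from -0.01 to 0.15 in Neb and from -0.27 to 0.36 in Myom1 (-0.08 without input replicate 1), and was -0.02 in Mybph without the first and last 1 kb. The Sox6 start ranged with 1 library left out from -0.16 to 1.32 in Myom1 and from -0.37 to 0.17 in Myom2. It was -0.92 in Mybpc3 with 500 bp on each side. In Myom2 it was 0.44 with 2 reads added, 0.04 with repeated positions once and 0.26 with 2 kb. The Pol II middle section of Mybpc2 was 0.05 with 2 reads added, 0.02 when scaled to reads outside peaks and from -0.75 to 0.09 with 1 library left out. That of Mybpc3 ranged from -3.08, without Pol II replicate 2, to 0.60, without Pol II replicate 1. The Sox6 5' section of Myom1 was -0.09 with weights for depth. With 1 library left out it ranged from -0.32, without Sox6 replicate 2, to 0.35, without Sox6 replicate 1. That of Mybpc2 was -0.07 with weights for depth and ranged with 1 library left out from -0.49 to 0.74. The Sox6 middle section ranged from -0.08 to 0.14 in Mybpc1 and from -0.20 to 0.06 in Mybpc3, where it was 0.27 with 2 reads added and 0.06 without the first and last 1 kb.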
